A study of Mus musculus with 6 samples.

Results

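The genes described here encode orphan, adhesion, lysophospholipid and adenosine receptors in primary mouse microglia, the resident macrophages of the brain. They were chosen by name: a symbol of the form Gpr plus a number, or one that begins with Adgr, Emr, Lphn, S1pr, Lpar or Adora, leaving out Gpr34 and Gpr56. Of 35275 gene entries in the deposited counts, 108 met this rule, and 44 of the 108 had enough reads to be tested. The 108 entries carry 107 symbols, because Adora3 stands on 2 identifiers. The annotation used here names 22 of them by a newer symbol, such as Adgre1 for Emr1, Adgre4 for Emr4, Adgrl1 to Adgrl3 for Lphn1 to Lphn3, Adgra2 for Gpr124, Adgra3 for Gpr125 and Adgrg6 for Gpr126. Some members of the Gpr series are not proven receptors at the cell surface, and these are described as a group of their own.

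RNA was sequenced from 6 samples of primary cultured microglia of C57/BL6 mice, 3 controls and 3 co-cultured with regulatory T cells (Tregs, T cells that restrain immune responses). The Tregs sat in permeable inserts, first for 24 hours above brain slices taken 5 days after transient middle cerebral artery occlusion, a stroke model, and then for 2 days above the microglia. No slices or inserts are recorded for the controls, so effects of the Tregs, of slice material and of the insert cannot be told apart. Nothing in the labels ties the 3 samples of a group to separate animals or cultures. The spread behind each p value is therefore that of these samples alone, and it may be technical. The sources used here give neither the age nor the sex of the animals, nor where the Tregs came from.

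The libraries held 16972758 to 22084542 counts, and log2 levels across genes correlated at 0.991 to 0.993 within groups and at 0.960 to 0.965 between groups. The microglia and macrophage markers summed to between 8150 and 8680 CPM (counts scaled by library size) in the controls and between 7429 and 7912 CPM in the co-cultured samples. Of these 10 markers, 5 were called higher in the co-cultured samples, 4 were called lower and 1 was not called. Csf1r and C1qa were abundant in both groups, whereas P2ry12 and Tmem119, which mark microglia in the intact brain, averaged 9.07 and 7.60 CPM in the controls. Of the T cell markers, Cd2, Trac and Ctla4 had no counts in any library, and Cd3e, Cd3d and Cd3g had 0, 1 and 0 counts over the control libraries and 15, 1 and 1 counts over the co-cultured libraries. In bulk samples fewer cells of a type and less RNA per cell cannot be told apart.

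G protein coupled receptors carry signals from outside the cell through heterotrimeric G proteins, and macrophages use them to sense lipids, nucleosides, acid and neighbouring cells. Lysophosphatidic acid (LPA) and sphingosine-1-phosphate (S1P) are signalling lipids released from membranes and blood that act through families of related receptors, and adenosine arises where ATP is broken down outside cells, as in ischemic tissue. Adhesion receptors have long extracellular regions that bind matrix or surface proteins of other cells, and orphan receptors are those without an agreed ligand.

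The receptor genes moved in both directions. Gpr35, a receptor for which kynurenic acid and other metabolites have been proposed as ligands, and Adora2b, the low-affinity adenosine receptor that raises cyclic AMP, were several times higher in the co-cultured microglia. Gpr37, a receptor best known from oligodendrocytes, and the orphan Gpr162 were several times lower. The most abundant member, Emr1, which encodes the macrophage antigen F4/80, was at a similar level in both groups.

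Of the 44 tested members, 26 (59.1%) were called changed at an adjusted p below 0.05 by edgeR's quasi-likelihood test, beside 50.9% of all 13274 genes tested. Of these, 14 (31.8%) were higher and 12 (27.3%) were lower, beside 25.9% and 25.0% of all genes. The split over all genes depends on how libraries are scaled: 3432 genes were higher and 3320 lower with TMM, the scaling used throughout, but 2731 and 4090 with upper-quartile scaling and 2774 and 3997 with library totals alone. The members' split was 13 and 12 with either of these. A change of at least 2-fold was called at 6 members (13.6%; Adora2b, Gpr35 and Gpr31b up, and Gpr37, Gpr162 and S1pr3 down), beside 9.94% of all genes. The 3 that rose are 6.82% of the members, beside 5.03% of all genes, and the 3 that fell are also 6.82%, beside 4.91%. The groups did not overlap at 27 of 44 members (61.4%), beside 57.2% of all genes. The median log2 fold change was 0.04 over the members and -0.01 over all genes, and the median absolute change was 0.56 and 0.28. The shares lie near the background of a comparison in which about as many genes were called as not. The median absolute change was larger over the members, and the part of members with few counts in this was not tested. The description below rests on the single genes.

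**Figure D1:**
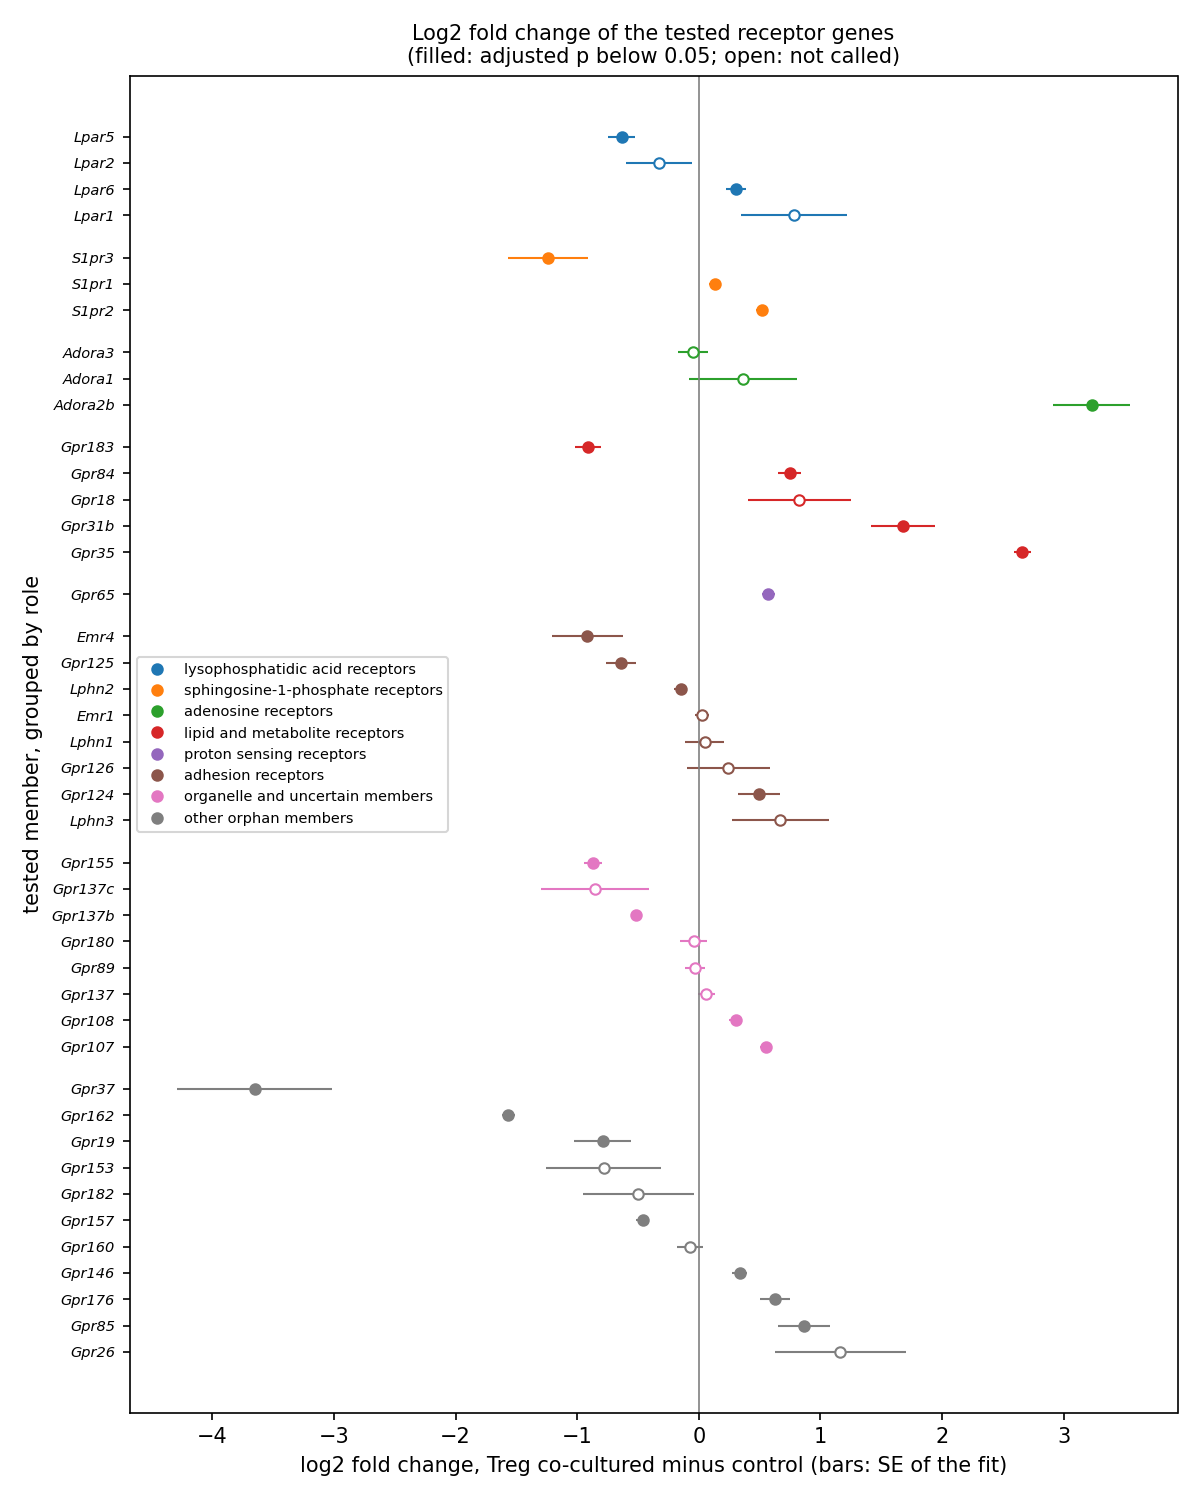
Log2 fold change (co-cultured minus control) of the tested receptor genes reported here, grouped by role, with the SE of the fit as bars; filled points passed the test and open points did not. Gpr37 lies farthest to the left at -3.65, and Adora2b and Gpr35 lie farthest to the right at 3.23 and 2.66.

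Sequences upstream of the genes with the largest changes, and of S1pr2, the lysophospholipid receptor with the highest FPKM in the co-cultured samples, are shown to give the DNA in front of these transcripts. Each is the 250 bases before a RefSeq transcription start (assembly GRCm38.p6), read 5′ to 3′ on the strand of the gene, with matches to the motifs searched in capitals. The coordinates are chr1:92978653-92978902 and chr1:92972869-92973118 (plus strand) for the pair of Gpr35 starts, chr11:62248734-62248983 (plus) for Adora2b, chr17:13052281-13052530 (minus) for Gpr31b, chr9:20976794-20977043 (minus) for S1pr2 and chr6:25689981-25690230 (minus) for Gpr37.
Gpr35, start nearer the end of the gene: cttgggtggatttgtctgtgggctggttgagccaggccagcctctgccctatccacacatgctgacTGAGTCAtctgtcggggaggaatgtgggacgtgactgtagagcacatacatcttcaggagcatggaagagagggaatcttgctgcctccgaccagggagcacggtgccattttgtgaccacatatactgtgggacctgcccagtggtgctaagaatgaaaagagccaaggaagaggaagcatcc
Gpr35, start farther upstream: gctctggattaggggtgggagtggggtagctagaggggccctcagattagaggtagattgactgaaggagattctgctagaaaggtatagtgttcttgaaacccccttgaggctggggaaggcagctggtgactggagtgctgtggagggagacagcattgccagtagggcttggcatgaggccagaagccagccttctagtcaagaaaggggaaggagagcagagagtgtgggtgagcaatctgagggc
Adora2b: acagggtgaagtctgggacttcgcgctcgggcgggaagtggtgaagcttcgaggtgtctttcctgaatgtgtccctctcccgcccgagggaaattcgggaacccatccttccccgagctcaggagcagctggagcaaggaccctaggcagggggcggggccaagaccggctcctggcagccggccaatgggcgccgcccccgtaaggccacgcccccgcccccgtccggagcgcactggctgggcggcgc
Gpr31b: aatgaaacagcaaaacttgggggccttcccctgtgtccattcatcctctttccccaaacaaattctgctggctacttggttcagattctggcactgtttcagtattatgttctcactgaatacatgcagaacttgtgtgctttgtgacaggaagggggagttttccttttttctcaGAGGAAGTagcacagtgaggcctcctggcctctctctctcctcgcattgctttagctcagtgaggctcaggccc
S1pr2: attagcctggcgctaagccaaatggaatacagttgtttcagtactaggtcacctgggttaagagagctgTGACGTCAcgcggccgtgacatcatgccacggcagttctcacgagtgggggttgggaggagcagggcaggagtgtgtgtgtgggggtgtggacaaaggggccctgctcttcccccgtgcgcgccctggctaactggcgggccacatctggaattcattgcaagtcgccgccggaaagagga
Gpr37: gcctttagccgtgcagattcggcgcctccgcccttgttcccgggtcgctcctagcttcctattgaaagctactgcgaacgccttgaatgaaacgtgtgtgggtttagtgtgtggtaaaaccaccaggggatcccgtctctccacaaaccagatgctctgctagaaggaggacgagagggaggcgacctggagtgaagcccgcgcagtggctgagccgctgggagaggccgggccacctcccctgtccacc

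RefSeq windows of 300 bases (250 before and 50 after a start) were at hand for 36 of the 44 tested members, 52 windows in all, and for 32851 windows genome-wide. The motifs were searched on both strands, and matches of different motifs were counted separately where they overlapped. An AP-1 site (TGANTCA) was found 184 bases before the start of Gpr35 nearer the end of the gene, and such a site was in 5 of the 52 member windows and in 7.81% of all windows. S1pr2 was the only member with a full cyclic AMP response element (TGACGTCA), 181 bases before its start, which 1.79% of all windows hold. Gpr31b held a PU.1 core (GAGGAAGT) 74 bases before its start; this core was in 5 member windows and in 3.20% of all windows. The interferon-stimulated response element core was in 3 member windows (3.44% of all windows) and the gamma activated site (TTCNNNGAA) in 2 (8.30%). No match to any of these letters was found in the windows of Adora2b and Gpr37. A match is a description of the letters only.

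Among the LPA receptors, Lpar5 fell and Lpar6 rose. Lpar5, the LPA receptor known for its expression in microglia, stood at 21.9, 17.1 and 18.3 CPM in the controls and at 12.6, 10.7 and 13.8 CPM in the co-cultured samples. The highest co-cultured sample lay below the lowest control, and the fall was 1.55-fold (log2 fold change -0.63 ± 0.11, SE; adjusted p = 1.07e-05, edgeR). Lpar6, which couples to G proteins that activate RhoA, stood at 19.8, 19.3 and 20.8 CPM in the controls and 23.8, 26.2 and 24.3 CPM in the co-cultured samples. The groups did not overlap, and the rise was 1.24-fold (0.31 ± 0.08; adjusted p = 0.00171, edgeR). Lpar6 lies within the gene Rb1, which shares 7.56% of its exon bases and fell by 0.26 on the log2 scale. The library kit does not mark strand, so reads from overlapping genes cannot be told apart.

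Lpar2 and Lpar1, both widely expressed LPA receptors, were far lower and did not pass the test. Lpar2 measured 2.63, 1.79 and 1.97 CPM in the controls and 1.17, 2.37 and 1.60 CPM in the co-cultured samples, with overlapping groups (-0.32 ± 0.27; adjusted p = 0.338, edgeR). Lpar1 measured 0.544, 0.404 and 0.550 CPM against 0.608, 1.37 and 0.632 CPM; all co-cultured samples lay above the controls, but 1 of them stood far above the others (0.78 ± 0.44; adjusted p = 0.140, edgeR). Lpar4 had 21 counts over the control and 10 over the co-cultured libraries, and Lpar3 had none.

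All 3 tested S1P receptors were called, S1pr2 and S1pr1 higher and S1pr3 lower. S1pr2, which couples to RhoA and restrains migration in many cells, stood at 159, 153 and 153 CPM in the controls and at 233, 219 and 215 CPM in the co-cultured samples. Every co-cultured sample was far above every control, and the rise was 1.44-fold (0.52 ± 0.05; adjusted p = 1.23e-10, edgeR). S1pr1, which couples to Gi and drives egress of lymphocytes into blood, stood at 166, 169 and 163 CPM and at 183, 177 and 185 CPM. Its groups were close without overlapping, and its 1.10-fold difference (0.13 ± 0.05; adjusted p = 0.0231, edgeR) depends on scaling. With upper-quartile scaling and library totals alone its adjusted p was 0.303 and 0.250, and without control 1, control 2, co-cultured 1 or co-cultured 3 it was 0.0656, 0.0588, 0.0564 and 0.0736. S1pr1 is also abundant in T cells and endothelium: the summed T cell markers ranged from 5.83 to 6.97 CPM in the controls and from 8.75 to 9.35 CPM in the co-cultured samples. Of these markers Cd4, which macrophages can also express, was called higher (2.53 ± 0.726 to 6.41 ± 0.178 CPM; adjusted p = 2.14e-07, edgeR), and Foxp3, the defining factor of Treg cells, was called lower (3.22 ± 0.313 to 1.63 ± 0.194 CPM; adjusted p = 4.29e-04, edgeR). The endothelial marker Cldn5 had 1 and 2 counts in the groups, while Pecam1, Kdr and Cdh5 were called higher and Flt1 lower. Cd4 and Foxp3 together made up most of the T cell sum in both groups, so that sum is a poor measure of T cell RNA. Foxp3 was also higher in the controls, for which no added Tregs are recorded. The part of T cells and endothelial cells in the level of S1pr1 was not tested.

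S1pr3, which couples to several G proteins, was much less abundant, at 1.77, 1.67 and 1.97 CPM in the controls and at 0.514, 0.710 and 1.07 CPM in the co-cultured samples. All co-cultured values lay below all controls, a 2.36-fold fall (-1.24 ± 0.33; adjusted p = 0.00212, edgeR). S1pr5 (21 and 2 counts over the control and co-cultured libraries) and S1pr4 (16 and 23 counts) were below the filter on low counts.

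Only Adora2b was called among the adenosine receptors. It stood at 0.499, 0.577 and 0.275 CPM in the controls and at 3.32, 5.87 and 3.40 CPM in the co-cultured samples. The lowest co-cultured sample was several times the highest control, and the rise was 9.38-fold (3.23 ± 0.31; adjusted p = 3.75e-10, edgeR), the largest rise among the 44 tested members. Adora3, a Gi-coupled receptor, measured 8.98, 8.54 and 8.16 CPM in the controls and 7.53, 8.80 and 8.55 CPM in the co-cultured samples. These groups overlapped (-0.05 ± 0.12, 95% interval -0.29 to 0.20; adjusted p = 0.788, edgeR). The second identifier listed as Adora3 is the neighbouring gene Tmigd3 in the annotation used here. It shares 779 exon bases with Adora3 on the same strand and had 26 and 20 counts. Reads on the shared bases may have been split between the pair or left uncounted, and the level of Adora3 may then be understated. Adora1, also Gi-coupled, measured 0.862, 0.462 and 0.596 CPM against 1.45, 0.426 and 0.632 CPM, with overlapping groups (0.37 ± 0.44; adjusted p = 0.520, edgeR). Adora2a, the high-affinity receptor that raises cyclic AMP, had 7 and 15 counts.

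**Figure D2:**
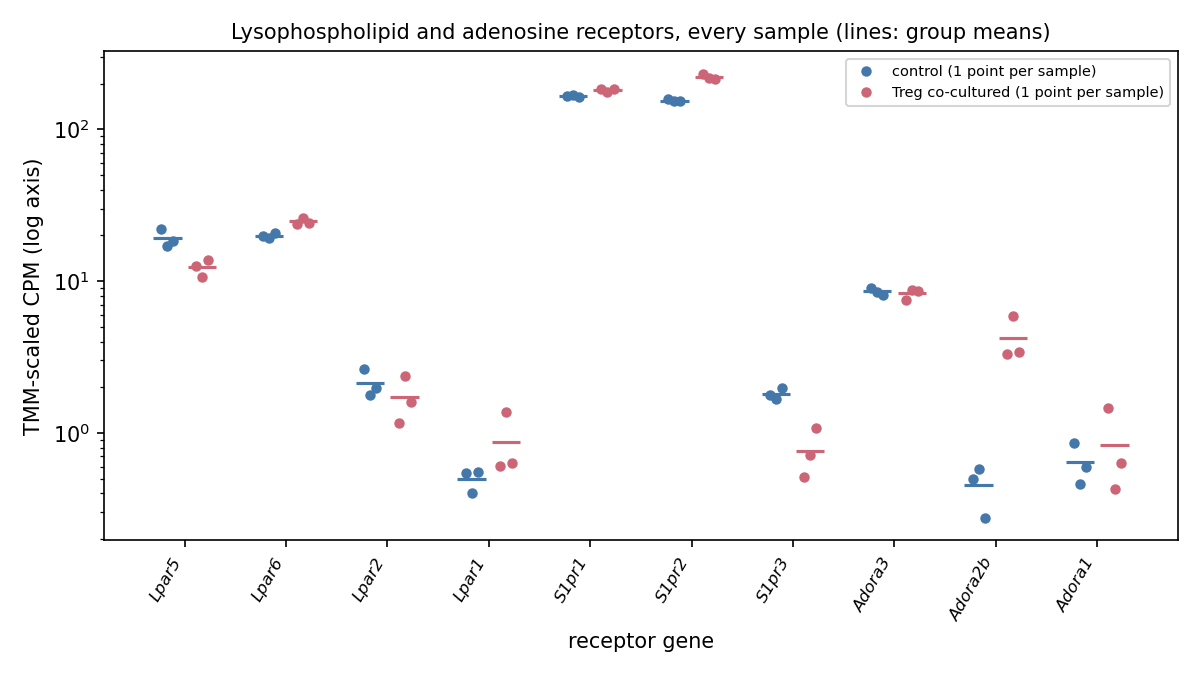
TMM-scaled CPM (log axis) of the tested LPA, S1P and adenosine receptors, 1 point per sample and a line at each group mean. Adora2b is separated by the widest gap, with group means of 0.450 and 4.20 CPM, while the points of Adora3, Lpar2 and Adora1 intermingle.

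Because levels of different genes can be compared only per length, the make-up of each family was taken from the authors' FPKM (counts relative to gene length and library total). S1pr2 made up 49.8 ± 0.737% of the summed S1P receptor FPKM of the control samples and 56.7 ± 1.15% of that of the co-cultured samples (SD, n = 3), and S1pr1 made up 49.6 ± 0.743% and 43.1 ± 1.11%. The ratio of S1pr2 to S1pr1 FPKM within a sample was 1.03, 0.973 and 1.01 in the controls and 1.37, 1.33 and 1.25 in the co-cultured samples. These ratios do not depend on library scaling, and the receptors went from about equal levels to more S1pr2 than S1pr1 in each co-cultured sample.

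Lpar5 made up 75.2 ± 1.94% of the summed LPA receptor FPKM of the control samples and 62.0 ± 5.01% of that of the co-cultured samples, and Lpar6 made up 21.4 ± 2.22% and 33.7 ± 3.18%. The ratio of Lpar6 to Lpar5 rose from 0.243, 0.306 and 0.306 to 0.510, 0.662 and 0.474. Of the summed FPKM of the 4 adenosine receptor genes, without the Tmigd3 entry, Adora3 made up 89.8 ± 1.70% and 58.5 ± 5.93%, and Adora2b made up 6.01 ± 1.94% and 37.0 ± 6.70%. With that entry in the sum Adora3 made up 80.3 ± 1.06% and 55.2 ± 5.44%, and Adora2b made up 5.38 ± 1.71% and 35.0 ± 6.55%. The family sums were 113 ± 1.88 and 136 ± 2.31 FPKM for S1P, 17.8 ± 1.97 and 13.3 ± 0.722 FPKM for LPA, and 4.12 ± 0.295 and 5.90 ± 0.950 FPKM for the 4 adenosine receptor genes (4.60 ± 0.294 and 6.24 ± 0.962 FPKM with the Tmigd3 entry, which was left out after the values were seen). The groups did not overlap for any of these shares or sums, and each had a two-sided p of 0.1 in the exact permutation test, the smallest that 3 samples against 3 allow (0.114 adjusted over 16 such quantities). The ratios here and that of Gpr35 to Gpr183 below are 3 of 10 pairs computed, chosen after the values were seen, and each of the 10 had this same exact permutation p of 0.1.

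**Figure D3:**
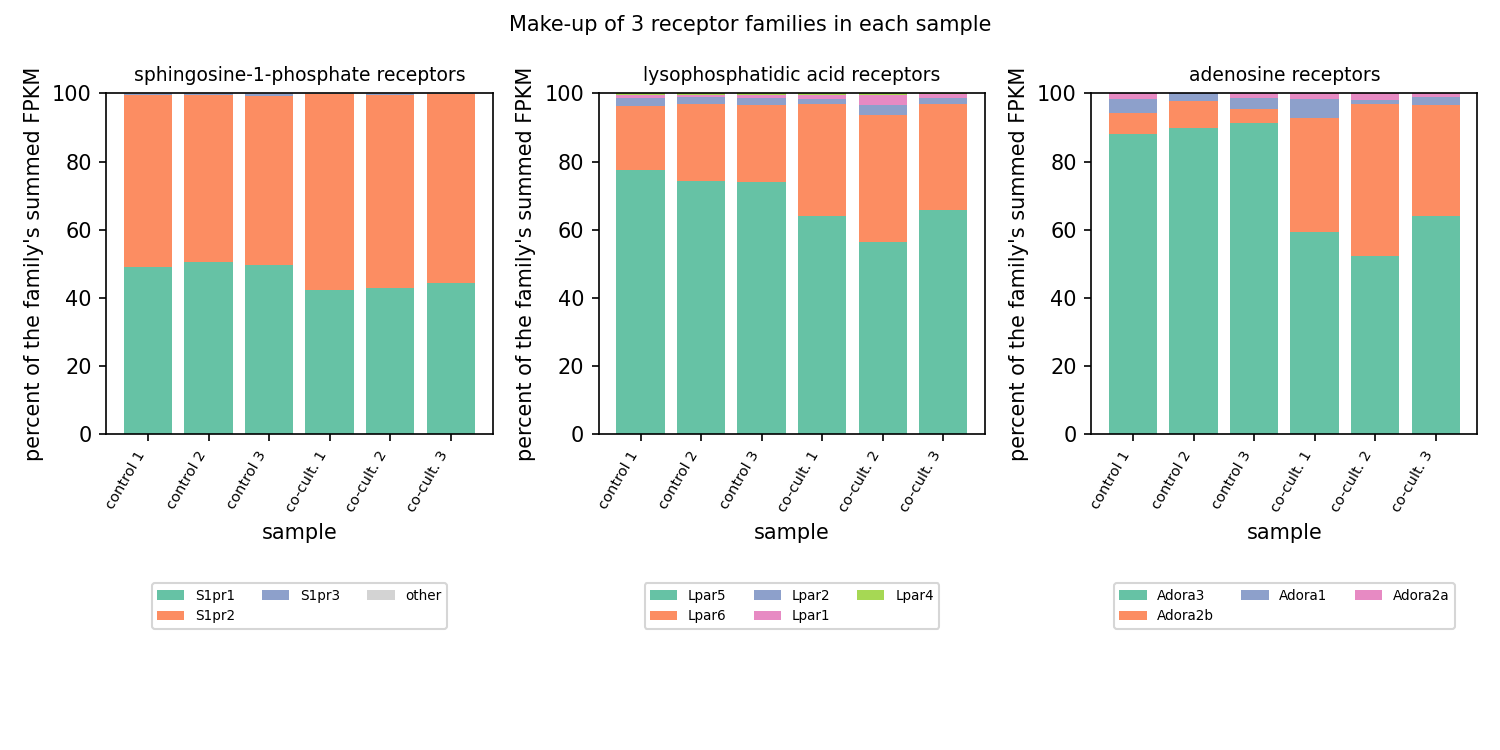
Share of each receptor in the summed FPKM of its family (percent) for each of the 6 samples; stacked bars, with any grey part holding the remaining genes of the family and the Tmigd3 entry left out. Adora2b takes 32.7% to 44.7% of the adenosine receptor FPKM in the co-cultured samples and 3.96% to 7.80% in the controls.

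The tested receptors for other lipids and metabolites ranged from -0.91 to 2.66 in log2 fold change. Gpr35 stood at 12.4, 15.3 and 14.4 CPM in the controls and at 85.6, 90.9 and 89.3 CPM in the co-cultured samples. The replicates of each group were close together and far from the other group, a 6.32-fold rise (2.66 ± 0.07; adjusted p = 7.44e-25, edgeR). Gpr84, a receptor for medium-chain fatty acids in myeloid cells, stood at 13.02, 11.66 and 13.89 CPM and at 21.9, 22.5 and 20.4 CPM. All co-cultured samples were above all controls, a 1.68-fold rise (0.75 ± 0.09; adjusted p = 4.16e-08, edgeR), and an antisense gene model without an entry in the count table covers 39.5% of its exon bases. Gpr31b, whose human counterpart binds a hydroxylated arachidonic acid, rose 3.20-fold from 0.995 ± 0.0867 to 3.21 ± 0.834 CPM (SD, n = 3; adjusted p = 2.47e-06, edgeR).

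Gpr183, the oxysterol receptor that guides immune cells within lymphoid tissue, went the other way, from 22.1, 18.1 and 22.0 CPM in the controls to 9.21, 12.1 and 11.9 CPM in the co-cultured samples. No co-cultured sample reached the lowest control, and the fall was 1.88-fold (-0.91 ± 0.11; adjusted p = 2.26e-08, edgeR). Within each sample the ratio of Gpr35 to Gpr183 FPKM was 0.393, 0.593 and 0.458 in the controls and 6.49, 5.26 and 5.24 in the co-cultured samples. Gpr18, a candidate lipid receptor of lymphocytes and myeloid cells, averaged 0.507 CPM in the controls and 0.904 CPM in the co-cultured samples and did not pass the test (adjusted p = 0.103, edgeR). The monocyte and border macrophage markers summed to between 737 and 777 CPM in the controls and between 1223 and 1322 CPM in the co-cultured samples, with Mrc1, Pf4, Ms4a7 and Clec4n called higher, while Ly6c2 had 0 and 1 counts and Ccr2 averaged 1.52 and 1.51 CPM. Their part in the changes of Gpr35, Gpr84 and Gpr183 was not tested.

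Gpr65, a proton-sensing receptor that raises cyclic AMP in acid surroundings, rose. It stood at 93.0, 99.3 and 104 CPM in the controls and at 154, 138 and 149 CPM in the co-cultured samples. The groups were well separated, with a 1.49-fold rise (0.57 ± 0.06; adjusted p = 1.70e-10, edgeR), and an antisense model without an entry in the table covers 24.7% of its exon bases. Below the filter, the proton sensor Gpr4 had 29 and 5 counts and its relative Gpr132 had 14 and 18 counts.

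Of 8 tested adhesion receptors, 1 was called higher, 3 were called lower and 4 were not called. Emr1 stood at 1129, 1159 and 1167 CPM in the controls and at 1205, 1068 and 1248 CPM in the co-cultured samples. Its co-cultured samples spanned the whole range of the controls (0.03 ± 0.05, 95% interval -0.08 to 0.13; adjusted p = 0.713, edgeR), and the sign of this value turned with upper-quartile scaling, library totals and FPKM. Emr4, a related receptor of mouse macrophages whose human counterpart is a pseudogene, averaged 2.69 ± 0.286 CPM in the controls and 1.43 ± 0.763 CPM in the co-cultured samples. Its 1.89-fold fall (adjusted p = 0.00972, edgeR) no longer passed the test without co-cultured 2 (adjusted p = 0.0823).

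Gpr125, an adhesion receptor without an agreed ligand, stood at 10.8, 10.8 and 9.99 CPM in the controls and at 6.45, 6.34 and 7.49 CPM in the co-cultured samples. The groups were apart, with a 1.56-fold fall (-0.64 ± 0.12; adjusted p = 6.10e-05, edgeR). Its relative Gpr124, which works with Wnt7 signalling in brain vessels, moved the other way, from 3.40, 4.39 and 4.86 CPM to 6.87, 4.83 and 6.08 CPM. The lowest co-cultured sample lay just below the highest control, and the rise of 1.41-fold (0.49 ± 0.17; adjusted p = 0.0157, edgeR) did not pass the test without control 1 (adjusted p = 0.116) or co-cultured 1 (0.109), or with DESeq2 (0.0634).

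The latrophilins Lphn1, Lphn2 and Lphn3 bind teneurins and FLRT proteins on other cells. Lphn2 stood at 85.7, 87.8 and 82.2 CPM in the controls and at 79.0, 75.5 and 75.7 CPM in the co-cultured samples. This small fall of 1.11-fold (-0.15 ± 0.05; adjusted p = 0.0220, edgeR) was not called with DESeq2 (adjusted p = 0.0562) or without control 1 (0.0580), control 2 (0.0971), co-cultured 2 (0.0583) or co-cultured 3 (0.0565). Lphn1 averaged 4.92 and 5.08 CPM and Lphn3 averaged 0.656 and 1.04 CPM, with overlapping groups and adjusted p values of 0.829 and 0.169 (edgeR). Gpr126, which is needed for myelination by Schwann cells, averaged 0.954 and 1.13 CPM (adjusted p = 0.582, edgeR).

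A group of 8 members encodes proteins of the Golgi or lysosome, or proteins whose standing as receptors is uncertain. All 8 passed the filter, 2 were higher and 2 were lower. Gpr137b, a lysosomal membrane protein, stood at 425, 418 and 411 CPM in the controls and at 292, 289 and 298 CPM in the co-cultured samples. The groups lay far apart relative to their spread, with a 1.43-fold fall (-0.51 ± 0.05; adjusted p = 4.98e-11, edgeR). The near-identical copy Gpr137b-ps averaged 222 and 163 CPM and fell by 0.44 on the log2 scale, so the share of reads that belongs to each is uncertain. Gpr155, a lysosomal cholesterol sensor, stood at 34.7, 34.6 and 33.4 CPM and at 19.5, 17.7 and 19.0 CPM. All co-cultured samples were below all controls, a 1.83-fold fall (-0.87 ± 0.08; adjusted p = 1.24e-11, edgeR).

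Gpr107, a Golgi protein of the secretory pathway, stood at 182, 179 and 178 CPM in the controls and at 263 CPM in each of the 3 co-cultured samples. The rise was 1.46-fold (0.55 ± 0.05; adjusted p = 1.29e-11, edgeR). Its relative Gpr108 stood at 82.0, 84.3 and 89.9 CPM and at 108, 98.8 and 109 CPM, again without overlap, a 1.23-fold rise (0.30 ± 0.06; adjusted p = 3.14e-05, edgeR). Gpr89, which regulates Golgi pH, averaged 26.1 and 25.5 CPM, Gpr137 averaged 30.6 and 31.9 CPM, and Gpr180 ranged from 11.9 to 12.8 CPM in the controls and from 10.8 to 13.3 CPM in the co-cultured samples (adjusted p = 0.789, 0.492 and 0.784, edgeR). Gpr137 shares 15.4% of its exon bases with Bad on the other strand. Gpr137c averaged 0.836 and 0.458 CPM (adjusted p = 0.111, edgeR).

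Of the remaining 51 orphan entries, 11 were tested, of which 3 were higher and 4 lower. Gpr162, an orphan receptor best known from brain, stood at 121, 122 and 125 CPM in the controls and at 40.8, 42.3 and 41.4 CPM in the co-cultured samples. The samples of each group differed little, and the fall was 2.96-fold (-1.57 ± 0.06; adjusted p = 8.55e-22, edgeR). Gpr157 stood at 148, 149 and 139.5 CPM and at 105, 104 and 109 CPM, also without overlap, a 1.38-fold fall (-0.46 ± 0.05; adjusted p = 3.92e-09, edgeR). Gpr19 fell 1.73-fold from 2.80 ± 0.280 to 1.62 ± 0.200 CPM (adjusted p = 0.00511, edgeR).

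Gpr37 stood at 1.09, 0.866 and 0.642 CPM in the controls and at 0.0935, 0.0473 and 0.0486 CPM in the co-cultured samples, which is 53 counts against 4. The lowest control was several times the highest co-cultured sample, a 12.6-fold fall (-3.65 ± 0.64; adjusted p = 1.27e-05, edgeR). Oligodendrocyte markers moved with it. Of 9 oligodendrocyte lineage markers, 7 were called lower and 1 (Pdgfra) higher, and their sum ranged from 265 to 283 CPM in the controls and from 167 to 182 CPM in the co-cultured samples. Among these 9 markers, Mog and Sox10 had 80 and 87 counts over the control libraries and 9 and 5 over the co-cultured ones. The median log2 fold change over the 9 markers was smaller in size, at -0.65. The part of oligodendrocyte RNA in the fall of Gpr37 was not tested.

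Gpr146, an orphan known from lipid metabolism in mouse liver, stood at 39.6, 41.0 and 41.2 CPM in the controls and at 51.1, 50.2 and 52.3 CPM in the co-cultured samples. The groups were apart, with a 1.26-fold rise (0.34 ± 0.06; adjusted p = 2.80e-05, edgeR). Gpr176, an orphan of the mouse circadian clock, stood at 7.80, 6.98 and 6.88 CPM and at 11.3, 12.4 and 9.77 CPM, a 1.54-fold rise without overlap (0.63 ± 0.13; adjusted p = 8.73e-05, edgeR). Gpr85, a strongly conserved brain orphan, rose 1.82-fold from 1.88 ± 0.0291 to 3.42 ± 0.314 CPM (adjusted p = 9.09e-04, edgeR). Gpr160, Gpr182, Gpr153 and Gpr26 did not pass the test. Gpr160 averaged 13.4 and 12.7 CPM, and the other 3 stayed at 1.10 CPM or less in every sample; Gpr26 had the lowest adjusted p of the 4 (0.0711, edgeR), with 18 and 42 counts.

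**Figure D4:**
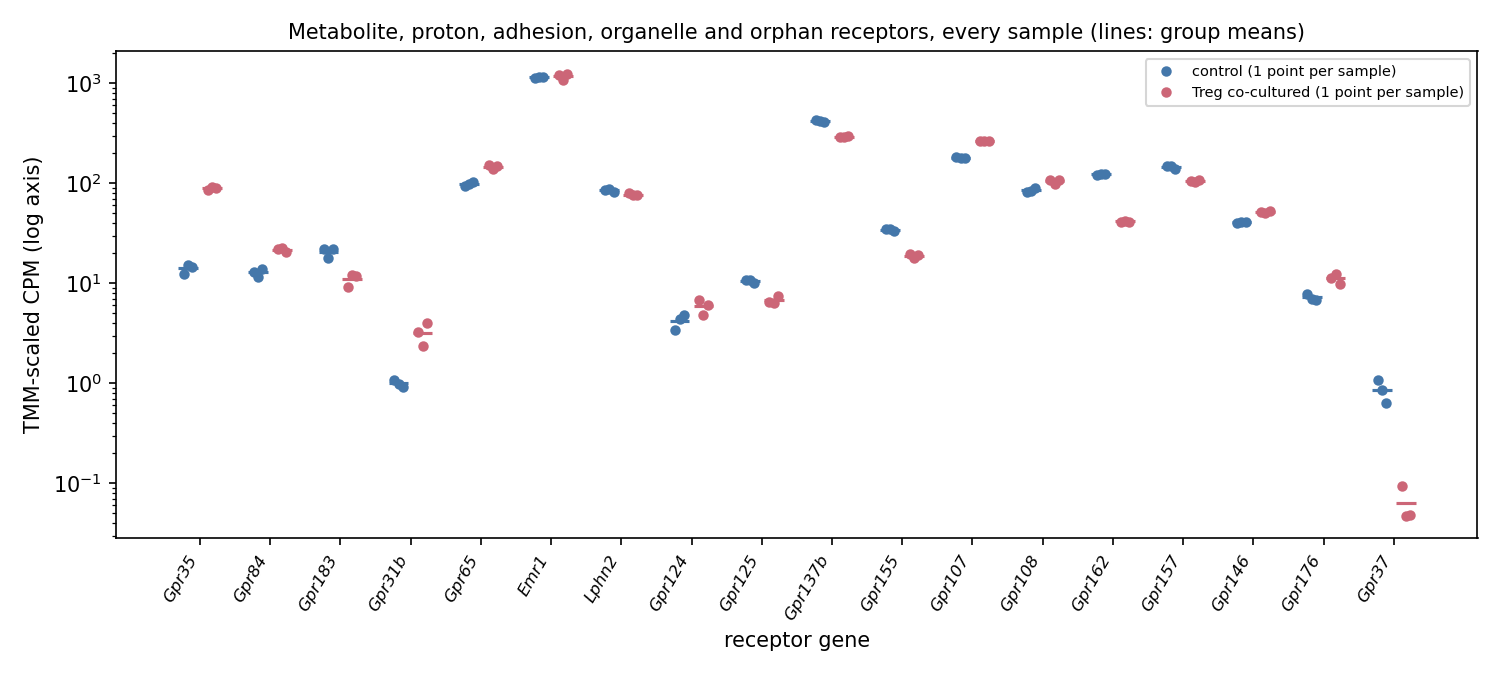
TMM-scaled CPM (log axis) of 18 tested metabolite, proton, adhesion, organelle and orphan members, 1 point per sample and a line at each group mean. Gpr35 and Gpr162 have tight points in widely separated groups, Emr1 has overlapping groups between 1068 and 1248 CPM, and the points of Gpr37 drop from about 1 CPM to below 0.1 CPM.

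Per gene length, Emr1 stood far above every other member, at 363 ± 4.67 FPKM in the controls and 353 ± 27.5 FPKM in the co-cultured samples. It made up 38.8 ± 0.523% and 38.6 ± 1.51% of the summed FPKM of all members (exact permutation p = 0.9). In the controls it was followed by Gpr137b (144 FPKM), S1pr2 (56.2), S1pr1 (56.0), Gpr65 (49.2), Gpr162 (46.9), Gpr108 (41.7), Gpr157 (30.4), Gpr107 (30.0) and Gpr137 (16.9). Within this order S1pr2 and S1pr1, Gpr65 and Gpr162, and Gpr157 and Gpr107 were neighbours whose samples overlapped. In the co-cultured samples Gpr35 moved from place 22 to place 9 (3.41 to 20.5 FPKM), Adora2b from 36 to 25 (0.250 to 2.22 FPKM) and Gpr162 from 6 to 11 (46.9 to 15.1 FPKM). Gpr183 moved from place 15 to 20, and Gpr37 from 37 to 44, the last of the tested members.

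**Figure D5:**
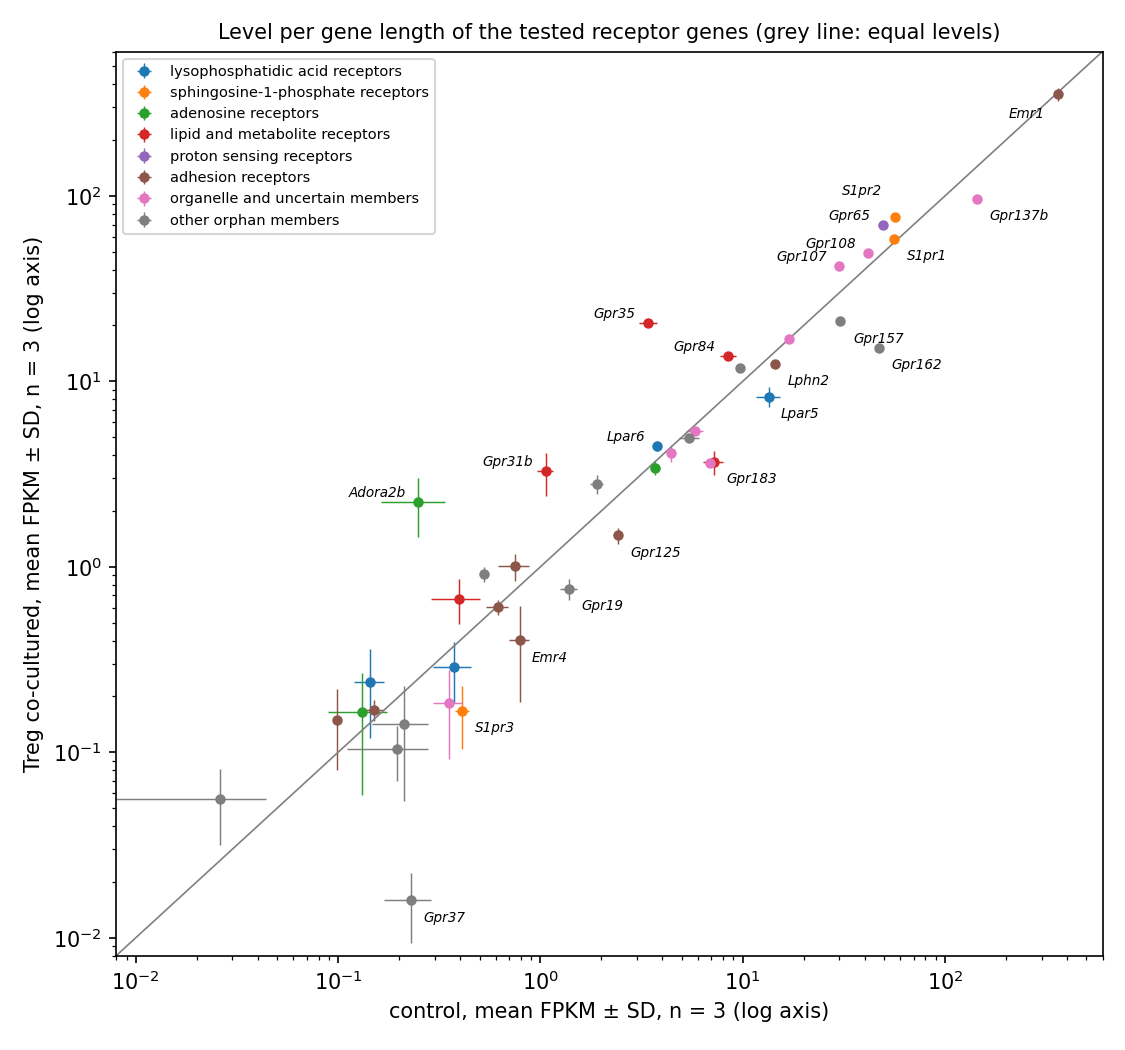
Mean FPKM of the tested members reported here in the control (horizontal, log axis) and co-cultured samples (vertical, log axis), with SD bars (n = 3) and a grey line of equal levels. Levels span from 0.0159 to 363 FPKM; Gpr35, Gpr31b and Adora2b lie farthest above the line and Gpr37, Gpr162 and S1pr3 farthest below it.

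Of the 64 members below the filter, 14 had no count in any library, 21 had 1 to 9 counts and 29 had 10 or more, at most 46. No count over all libraries allows up to 3 counts, or 0.0241 CPM, counting error only. The 14 at 0 include Lpar3, Gpr119, Gpr174, Gpr6, Gpr12 and Gpr33. Fitted without the filter by edgeR, 6 of the 50 with any count were called, beside 264 of the 8631 genes below the filter that had a count (3.06%). Gpr55, a lysophospholipid receptor, had 4 counts over the control and 32 over the co-cultured libraries (adjusted p = 0.00314). Gpr171, an orphan of lymphoid cells, had 0 and 10 (0.0330), and Gpr141, a myeloid orphan named here after its values were seen, had 0 and 9 (0.0448). Gpr98, a very long adhesion receptor, had 34 and 6 counts (adjusted p = 0.00576, edgeR), Gpr4 had 29 and 5 (0.00949), and S1pr5, an S1P receptor of oligodendrocytes and natural killer cells, had 21 and 2 (0.0111).

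The others with 10 or more counts were not called in that fit. They include Gpr179, Gpr27, Gpr97, Gpr62, Gpr83, Lpar4, Gpr22, Adora2a, Gpr15, Gpr123, S1pr4, Gpr3, Gpr165, the second Adora3 entry, Gpr17, Gpr132, Gpr161, Gpr63, Gpr21, Gpr82, Gpr158 and Gpr173. Gpr17, a receptor of immature oligodendrocytes, had 7 counts over the control and 11 over the co-cultured libraries, with overlapping groups.

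Enzymes that make or remove the ligands moved in both directions. For each list below, the shares over all genes tested were 50.9% called, 25.9% higher and 25.0% lower. Of 21 tested genes of LPA metabolism, 6 were called higher and 7 lower. Pla2g4a, the cytosolic phospholipase that releases arachidonic acid and lysophospholipids, rose 1.99-fold from 19.5 ± 0.635 to 38.8 ± 5.00 CPM, Pld1, a phospholipase that makes phosphatidic acid, rose from 30.5 to 44.5 CPM, and Lpcat1, which turns lysophospholipids back into phospholipids, fell from 48.4 to 31.2 CPM (adjusted p = 1.23e-11, 6.96e-08 and 1.14e-09, edgeR). Of 17 tested genes of S1P metabolism, 4 were higher and 3 lower. Sptlc2, a subunit of the enzyme that starts sphingolipid synthesis, rose from 80.1 to 124 CPM, and the ceramidase Asah2 rose from 34.4 to 56.8 CPM. The lipid exporter Abca1 fell from 2441 to 1782 CPM (adjusted p = 2.95e-11, 5.97e-11 and 1.97e-08, edgeR).

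Of 13 tested genes of adenosine supply and removal, 3 were higher and 3 lower. Entpd1 (CD39), which breaks down extracellular ATP and ADP on the way to adenosine, fell 3.07-fold from 335, 360 and 347 CPM to 109, 116 and 114 CPM (adjusted p = 3.14e-23, edgeR). Pnp, which degrades inosine, rose 3.32-fold from 111 ± 13.7 to 368 ± 18.1 CPM, and the nucleoside importer Slc28a2 rose from 0.191 ± 0.113 to 4.67 ± 0.578 CPM (adjusted p = 7.00e-14 and 1.38e-13, edgeR). Of the oxysterol enzymes, 3 were tested: Cyp27a1, which hydroxylates cholesterol, fell from 36.0 to 13.2 CPM, and Hsd3b7, which acts on the ligands of Gpr183, rose from 30.3 to 36.7 CPM (adjusted p = 6.53e-16 and 0.00126, edgeR). Of the 3 tested genes of lysophosphatidylserine metabolism, 0 were higher and 1, the receptor Gpr34, was lower (75.8 to 21.6 CPM; adjusted p = 7.49e-20, edgeR).

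Components that act behind the receptors were also divided. Of 23 tested G protein subunits, 6 were higher and 8 lower, with Gnb1 going from 419 to 616 CPM, Gng2 from 155 to 109 CPM and Gng12 from 132 to 93.4 CPM (adjusted p = 1.23e-11, 3.39e-10 and 7.68e-10, edgeR). Receptor kinases and beta-arrestins switch receptors off, and their list also held the arrestin-related genes Arrdc1 to Arrdc4 and Txnip. Of its 12 tested genes 4 were higher and 4 lower, with Arrdc2 and Arrdc3 among the lower. Arrb2 rose from 274 to 383 CPM, its paralogue Arrb1 fell from 209 to 147 CPM and the kinase Adrbk1 rose from 303 to 376 CPM (adjusted p = 2.35e-10, 5.53e-10 and 1.09e-06, edgeR). Of 14 regulators of G protein signalling, 5 were higher and 5 lower. Rgs10, known from microglia, fell from 98.0 to 59.9 CPM, Rgs12 fell from 15.5 to 6.69 CPM and Rgs1 rose from 46.4 to 70.0 CPM (adjusted p = 5.27e-12, 7.07e-10 and 2.00e-09, edgeR).

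Of 18 tested cyclic AMP enzymes, 7 were higher, all of them phosphodiesterases, and 5 were lower, beside 25.9% and 25.0% of all genes. Pde7b rose 5.25-fold from 10.9 ± 0.560 to 57.3 ± 3.17 CPM, Pde8a rose from 49.9 to 103 CPM and Pde7a rose from 15.8 to 22.2 CPM (adjusted p = 8.57e-23, 9.55e-17 and 1.93e-05, edgeR). The lower members were the cyclases Adcy5, Adcy7 and Adcy9 and the phosphodiesterases Pde1b and Pde8b. Of 13 tested genes listed as known or possible ligands of adhesion receptors, 5 were higher and 4 lower. Flrt2, a latrophilin ligand, rose from 61.0 to 165 CPM and Tgm2, a transglutaminase that binds an adhesion receptor, rose 7.36-fold from 32.2 to 236 CPM, while Plxdc1 fell from 76.9 to 42.8 CPM (adjusted p = 7.96e-16, 1.36e-12 and 1.46e-13, edgeR).

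Of 5 tested adhesion receptors listed under other names, Cd97, a leukocyte receptor for Cd55, fell from 10.2 to 4.97 CPM, and Bai1, which binds phosphatidylserine on dying cells, and its relative Bai2 rose from 1.93 to 3.92 CPM and from 2.19 to 3.81 CPM (adjusted p = 1.05e-07, 3.17e-04 and 0.00301, edgeR). A list mainly of lipid and metabolite receptors under other names also held orphans. Of its 13 tested genes, 8 were higher and 3 lower. The orphan Gprc5c fell 9.32-fold from 25.3 ± 0.0948 to 2.71 ± 0.838 CPM, the leukotriene receptor Cysltr1 rose 2.81-fold from 15.3 to 43.1 CPM, and the chemerin receptor Cmklr1 rose from 147 to 198 CPM (adjusted p = 6.17e-19, 7.69e-17 and 1.00e-07, edgeR). Over all these lists 96 of 155 tested genes were called (61.9%, beside 50.9% of all genes), 51 higher and 45 lower, and with upper-quartile scaling 45 were higher and 52 lower.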

How the data were processed

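STAR and HTSeq 0.11.2 with the build GRCm38 were used, per the submitters' processing notes. The sources used here give neither the annotation release nor the strand setting. The authors deposited raw counts in 2 sheets, one keyed by identifier, used here, and the other by name. The authors also deposited FPKM values, which for 44 of 44 tested members equalled count over length and library total within a relative tolerance of 0.0001. FPKM served for levels between genes and in alternatives.

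From the counts, edgeR 4.0.16 (R 4.3.3) with filterByExpr, TMM scaling and a robust quasi-likelihood fit with group as its only term tested 13274 genes two-sided, with Benjamini-Hochberg adjustment over all of them; an adjusted p below 0.05 is called. CPM are TMM-scaled, values are in the order of replicates 1 to 3, and fold changes come with the SE of the fit. This SE was back-calculated as the absolute log2 fold change over the square root of the quasi-likelihood F statistic. The 95% intervals are built from it with a normal quantile, which can be too narrow with so few samples. Alternatives used DESeq2 1.42.0, limma 3.58.1 (voom, and on log2 FPKM with pseudocounts of 0.1 and 1), other scalings, filters and each library left out. Shares and ratios had exact two-sided permutation tests. PCR reads without molecular identifiers are not independent molecules, so counts carry counting error only. GENCODE M21 gave coordinates and overlaps, RefSeq the upstream sequences.

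By rule every tested member is named; a few genes so named are left out of the text. Values in every sample are given for called members averaging 5 CPM or more in either group, for tested LPA, S1P and adenosine receptors, and for folds of at least 4; other members are named below the filter if they had at least 10 counts. Of each pathway list up to 3 called genes with the smallest adjusted p are named. Members and lists were chosen with earlier results of these data known.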

Additional observations from a re-analysis of the deposited data

How the results depend on the processing

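Under the 18 alternatives (17 for Gpr37, which a stricter filter removes), 21 of the 26 called members kept their call and direction, and Emr4, Gpr124, Lphn2, Lpar6 and S1pr1 were lost under at least 1. Sizes were not kept on log2 FPKM, where the pseudocount shrinks low genes: with pseudocounts of 0.1 and 1 the log2 fold changes were -1.49 and -0.27 for Gpr37, -0.96 and -0.28 for S1pr3 and 2.72 and 1.34 for Adora2b. The number of called members ranged from 23 (FPKM, pseudocount 0.1) to 32 (no filter), with 28 by DESeq2 (24 of the 44, without Gpr124 and Lphn2, and 4 below the filter used here: Gpr55, Gpr98, Gpr4 and S1pr5) and 27 by limma-voom (the 26 and Gpr26), and from 24 to 28 when 1 library was left out. Over all genes the count ranged from 5742 to 6821 (6028 to 6455 with 1 library left out), and over the pathway lists from 76 to 98 (83 to 96). On log2 FPKM the adjusted p was 0.0516 (pseudocount 0.1) and 0.0822 (no filter) for Emr4, 0.163 to 0.221 for Gpr124, 0.214 to 0.268 for S1pr1 and 0.0693 for Lpar6 without the filter. Lphn3 was called without co-cultured 2 (0.0489), Gpr137c without co-cultured 1 (0.0452), and Gpr26 by limma-voom (0.0447) and without control 1 (0.0254). With the replicate number as a block 6755 genes, 26 members and 97 pathway genes were called. Deviations of log2 CPM from the group means correlated at -0.033, -0.023 and -0.027 between samples of the same replicate number. The titles also carry labels whose numbers are offset, with Mi2 for control 1 and MibrT1 for co-cultured 1. Matched by these labels, Mi2 and MibrT2 correlated at 0.008, and Mi3 and MibrT3 at 0.003. The labels were not used as a block. These values gave no sign of pairing by number, but with 3 samples per group they cannot exclude it. Of the 10 members with the highest FPKM in the controls, 9 were also among the 10 highest by CPM. Some members that were not called changed sign, given as log2 fold changes. With upper-quartile scaling, library totals, and log2 FPKM with pseudocounts of 0.1 and 1, Emr1 went to -0.0455, -0.0391, -0.0418 and -0.0417, Lphn1 to -0.0240, -0.0175, -0.0124 and -0.00614, and Gpr137 to -0.00990, -0.00363, -0.00472 and -0.00450. With 1 library left out the range was -0.292 to 0.679 for Adora1, -0.0934 to 0.0212 for Adora3, -0.0219 to 0.0875 for Emr1, -0.0446 to 0.155 for Lphn1, -0.118 to 0.0295 for Gpr180 and -0.105 to 0.0183 for Gpr89. The causes were not tested. Members with a few counts per library, such as Gpr37, Adora1, Lpar1 and Gpr26, have wide errors.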
